A study of Mus musculus with 4 samples.

Results

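Heat shock chaperones and their partners of the cytosol and the mitochondrial matrix were followed in mouse embryonic stem cells (ESCs) after lactate supplementation. The set held 37 genes out of the 55335 genes counted, chosen by name as members of the HSP70, HSP110, HSP90, small HSP, J-protein and chaperonin families, together with co-chaperones, the mitochondrial HSP60 system and the heat shock factors Hsf1 and Hsf2. RNA-seq covered 2 libraries of control AB2.2 ESCs and 2 libraries of AB2.2 ESCs held in 50 mM lactate for 24 h. Both groups were the same mouse ESC line, with no allele named, grown on mouse embryonic fibroblast (MEF) feeders in medium with fetal bovine serum, leukemia inhibitory factor, the GSK3 inhibitor CHIR99021 and the MEK inhibitor PD0325901, so that the groups differed by lactate alone as far as the labels tell. The labels do not say whether libraries of a group came from separate cultures. The p-values therefore rest on spread between these libraries, which the model shares across genes and which may be technical.

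Chaperones bind unfolded or partly folded proteins and help them to reach or keep their native shape. HSP70 proteins hold and release short hydrophobic stretches in a cycle driven by ATP, in which J-proteins deliver clients and stimulate hydrolysis, while BAG and HSP110 proteins exchange the nucleotide. HSP90 takes over clients such as kinases and steroid receptors with the help of co-chaperones, the chaperonin ring folds actin and tubulin, and in mitochondria a HSP60 cage with its HSP10 lid folds imported proteins. Heat shock factor trimers bind heat shock elements, in which short GAA and TTC units alternate, and raise the transcription of many of these genes when unfolded proteins build up. Pluripotent stem cells are known for high levels of the chaperonin and of other chaperones.

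The 4 libraries held between 18067562 and 19077885 reads on genes, and 18661 genes passed the filter on low counts. Mitochondrially encoded transcripts took 5.48% and 5.72% of gene reads in control replicate 1 and lactate replicate 1, against 2.43% and 2.82% in the libraries numbered 2. Of 10 pluripotency genes, whose summed level ran from 5785 to 6192 normalized counts (CPM, scaled to the TMM-adjusted library total) in the control and from 6151 to 6991 CPM in the lactate libraries, none was at 0 in every library, and Sox2 was the member with the smallest p-value at a log2 fold change of 0.56 ± 0.14 (SE) and an edgeR adjusted p of 0.0888. The 18 fibroblast markers summed to 3413 and 3724 CPM in controls against 4254 and 3897 CPM with lactate, and none of these was at 0 in every library either. The rise of this sum lay in Fn1, at 2390 and 2348 CPM in controls against 3322 and 2847 CPM with lactate, while the other 17 markers summed to 1023 and 1376 CPM in controls against 932 and 1051 CPM with lactate, which overlapped, and 10 of the 18 had a lower fitted level. Of the pluripotency genes, 3 were higher and 1 lower at an unadjusted edgeR p under 0.05, and of the fibroblast markers 2 were higher and 3 lower. Among all genes tested, 11.7% were higher and 11.4% lower at that threshold. Pdgfra and Pdgfrb had log2 fold changes of 0.99 and 0.56 and Col3a1 one of -0.90, with edgeR adjusted p-values of 0.0879, 0.105 and 0.105. With DESeq2, 2 fibroblast markers (Col3a1 and Vim) had an adjusted p under 0.05, both lower, and no pluripotency gene did. Of all genes with an adjusted value, 3.07% were lower at that threshold. Vim had 250 and 340 CPM in controls against 149 and 200 CPM with lactate, at a log2 fold change of -0.75 and an edgeR adjusted p of 0.118. Transcripts of the fibroblast markers were thus counted in both groups, and their part in the values of the chaperones was not tested. In such bulk samples fewer cells of a type and less RNA per cell cannot be told apart.

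Lactate libraries held less chaperone mRNA in total than control libraries, by transcript level as well as by read count. In length-corrected transcript levels (TPM), the 37 genes together made up 2.03% and 2.01% of all transcripts in controls, against 1.57% and 1.49% with lactate. Their summed counts were 26120.0 and 26412 CPM in controls against 20667 and 20358 CPM with lactate, and the groups overlapped on neither scale. Of the difference between the group means, -4937 TPM, -2918 TPM was that of Hspa8 alone and -1046 TPM that of Hsp90ab1. The TPM of Hspa8 depend on an effective length and on a split of reads with a pseudogene, both described below. In CPM the gaps of the 2 genes were nearer to each other in size. Mean CPM was 3511 in controls and 1133 with lactate for Hspa8, and 6202 and 4392 for Hsp90ab1. The other 5 HSP70 genes together summed to 159 and 165 TPM in controls against 161 and 187 TPM with lactate. Most of this sum was Hspa14, at 139 and 145 TPM in controls against 143 and 170 TPM with lactate. Hspa1a, Hspa1b and Hspa2 were lower in both lactate libraries, and Hspa13 was higher in both. The mean of Hsp90aa1 was 59.2 TPM higher with lactate. The 7 chaperonin subunits summed to 3036 and 3429 TPM in controls against 3059 and 3254 TPM with lactate, so that the groups overlapped there.

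All 37 genes passed the filter, and 26 had a lower and 11 a higher fitted level upon lactate supplementation, against 49.0% of all tested genes with a log2 fold change below 0. The median log2 fold change was -0.29 over the chaperone genes and 0.01 over all genes tested. Calls were made where the edgeR quasi-likelihood test gave an adjusted p under 0.05 and the change was over 2-fold. By this rule 2 chaperone genes, Hspa8 and Hsph1, were called lower and none was called higher, where 0.348% of all genes were called lower and 0.552% higher. With the adjusted p under 0.05 alone the same 2 genes were lower and none was higher, against 0.423% and 0.568% of all genes. At an adjusted p under 0.1, 6 chaperone genes were lower and none was higher, against 3.89% lower and 3.78% higher among all genes. The other 4 of these were Dnajb1, Dnaja1, Hspd1 and Dnajb6.

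Looser readings of the same 4 libraries, which are not independent of the calls above, had the same direction. An unadjusted p under 0.05 was reached by 14 chaperone genes that were lower and by 2 that were higher (Chordc1 and Dnajb4), against 11.4% lower and 11.7% higher among all genes. Both lactate libraries lay below both controls for 18 chaperone genes and above both for 7, while 12 overlapped. Over all genes tested these shares were 25.9% below and 27.0% above. With DESeq2, an adjusted p under 0.05 was given to 5 chaperone genes (Hspa8, Hsph1, Dnajb1, Dnaja1 and Hspd1), all lower, where 3.07% of all genes with an adjusted value were lower at that threshold. With 2 libraries against 2, an exact permutation test of a single gene cannot give a two-sided p below 0.333, so the calls rest on the spread that the model shares across genes.

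**Figure D1:**
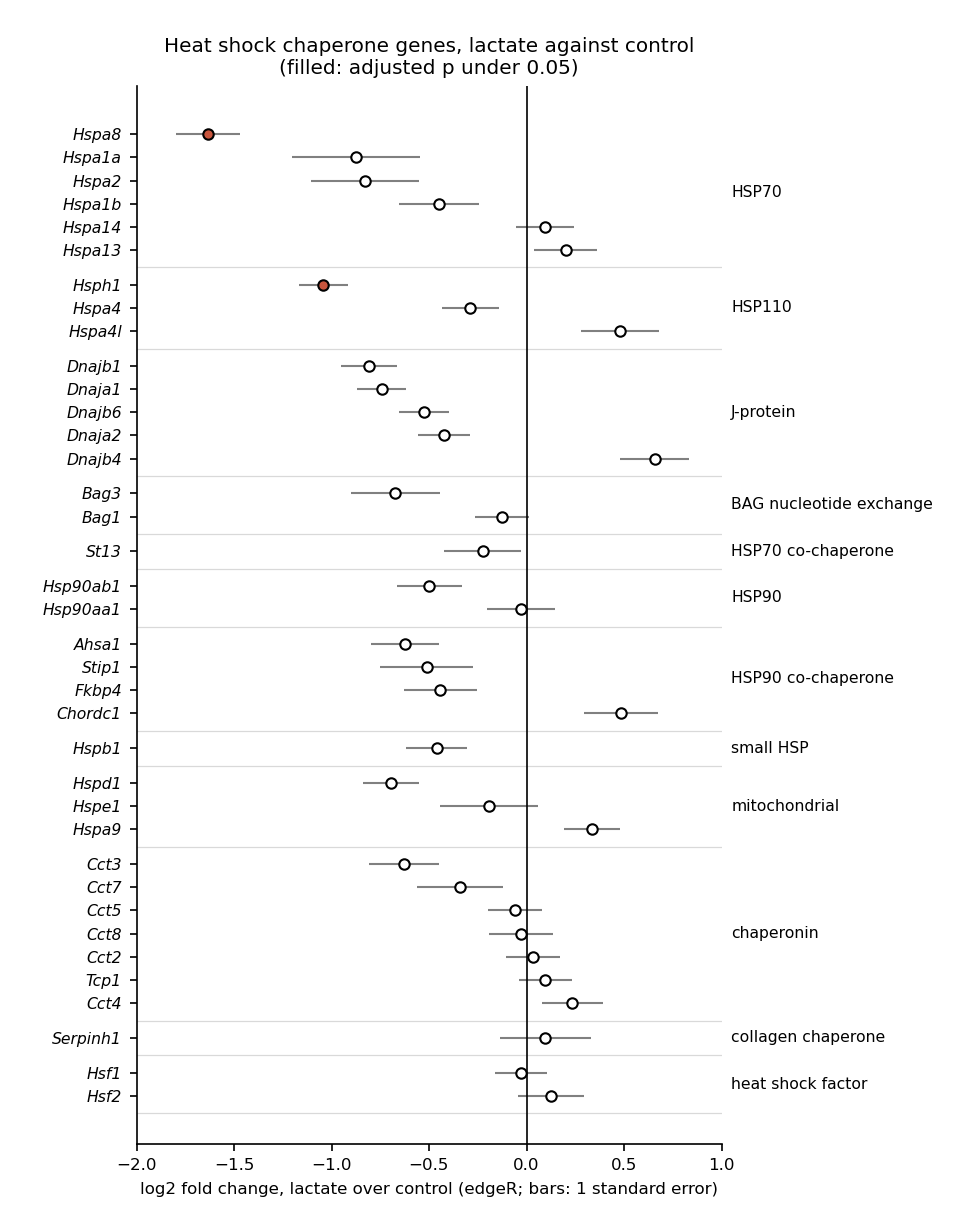
Log2 fold change (lactate over control, edgeR) of the 37 chaperone genes on the horizontal axis, grouped by role on the vertical axis, with bars of 1 standard error and filled points for an adjusted p under 0.05. Hspa8 at -1.63 and Hsph1 at -1.04 are filled, and Dnajb4 at 0.66 lies farthest to the right.

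**Figure D2:**
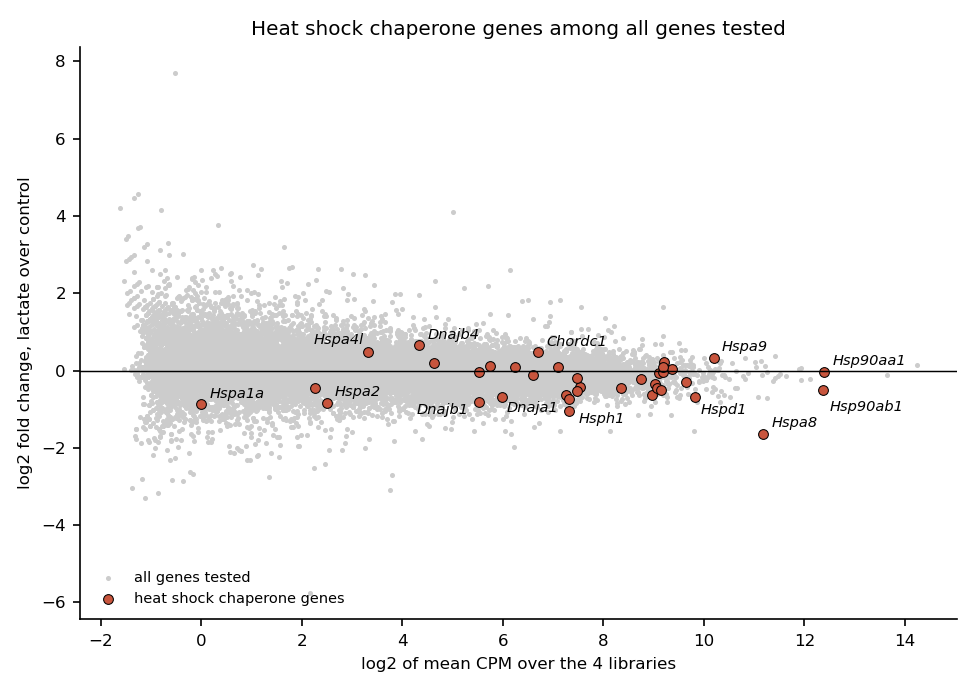
Log2 fold change against log2 of the mean CPM over the 4 libraries for all 18661 genes tested (grey) and the 37 chaperone genes (red), of which 13 are named. Hspa8 lies below the other highly expressed chaperone genes, and Hsp90aa1, at a similarly high level, lies at -0.03.

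Heat shock elements are shown because they are the sequence feature through which many of these genes are known to be controlled. Promoter windows from 250 bases before to 50 bases after each start (RefSeq, GRCm38.p6) were given for 29 of the 37 genes. Not in the table were Hspa8, Hsf1, St13, Cct4, Hspa9, Hsp90aa1, Hspa13 and Hsp90ab1. The facing pair GAANNTTC, searched on both strands, was in the windows of 12 of the 29 genes and of 9.04% of all 27025 genes with a window. The opposite pair TTCNNGAA was in 7 of the 29 and in 9.60% of all, and either pair was in 14 of the 29 and in 17.0% of all. The pairs can overlap each other, and a run of 3 alternating units, each with a 2-base gap to the next, was in 5 of the 29 genes (Hspd1, Hspe1, Hsph1, Dnajb6 and Chordc1) and in 0.662% of all genes. A match describes these letters and does not show that a factor binds there.

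The runs of these 5 genes are given below on the strand of the gene, with the alternating units and the bases between them in capitals. Hspd1 and Hspe1 lie head to head on chromosome 1 and share 1 element, which is at chr1:55088053-55088082 and is printed as read from Hspe1 (plus strand), where it lies from -89 to -72 relative to the start. Read towards Hspd1 it lies from -144 to -127. The Dnajb6 element is at chr5:29735843-29735872 (plus strand), from -46 to -34 relative to 1 of the 2 starts whose windows hold it. The Hsph1 element is at chr5:149636280-149636309 (minus strand), from 15 to 27 relative to 1 of the 2 starts whose windows hold it, and the Chordc1 element is at chr9:18292259-18292288 (plus strand), where 3 overlapping matches span the start.
Hspe1 and Hspd1: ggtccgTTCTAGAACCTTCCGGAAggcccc
Dnajb6: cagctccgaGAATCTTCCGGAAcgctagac
Hsph1: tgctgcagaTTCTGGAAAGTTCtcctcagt
Chordc1: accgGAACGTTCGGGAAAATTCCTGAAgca
Of the 5 genes with such a run, 3 (Hsph1, Hspd1 and Dnajb6) were among the 6 with an edgeR adjusted p under 0.1 and a lower level. Also among the 6 were Dnajb1 and Dnaja1, whose windows held no such run, and Hspa8, which had no window. Hspe1, which shares its element with Hspd1, overlapped between the groups, and Chordc1 was higher at an edgeR adjusted p of 0.199. Whether the run goes with the change was not tested.

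Hspa8, which encodes the constitutive cytosolic HSP70 (HSC70) that also uncoats clathrin vesicles, had the lowest log2 fold change of the set. Its CPM was 3384 and 3638 in controls against 1197 and 1069 with lactate. Both lactate libraries were far below both controls, with means of 3511 ± 180.1 and 1133 ± 89.9 CPM (SD, n = 2 each). The level in lactate was 32.3% of that in the control, a log2 fold change of -1.63 ± 0.16 (SE) with an edgeR adjusted p of 0.0320. In the 4 fits that left out 1 library each the log2 fold change ran from -1.74 to -1.56 and the edgeR adjusted p stayed between 2.61e-06 and 0.0204. The call was lost with limma on FPKM, where no gene at all was called and the adjusted p of Hspa8 reached 0.311.

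Hspa8 lies on chromosome 9 (chr9:40800984-40810087, plus strand, GRCm38), and 3 small nucleolar RNA genes sit within it on the same strand. Snord14c had 41 and 28 reads in controls against 14 and 11 with lactate, Snord14d had 44 and 55 against 15 and 19, and Snord14e had 24 and 24 against 7 and 9. Each was lower in both lactate libraries, with log2 fold changes of -1.54, -1.61 and -1.65, close to that of the host gene, and edgeR adjusted p-values from 0.0543 to 0.0917. RSEM gave them no reads. The study's methods name the GeneCounts mode of STAR, which leaves out reads that overlap several genes, but whether the deposited table came from that step is not stated.

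Reads of Hspa8 cannot be fully told apart from those of its copies. Of the 50-base stretches of its reference transcript, 73.2% also occur exactly in other annotated transcripts, and the processed pseudogene Gm15459 on chromosome 5 is the main partner. Gm15459, named after its values were seen, held 20654 and 28057 reads in controls against 8221 and 9107 with lactate. It thus moved with Hspa8, at a log2 fold change of -1.56 ± 0.17 (SE) and an edgeR adjusted p of 0.0346. Hspa8 and Gm15459 together had 79169 and 97091 reads in controls against 30464 and 30204 with lactate, and Gm15459 took 26.1%, 28.9%, 27.0% and 30.2% of that sum. RSEM, which divides shared reads by likelihood, gave the pseudogene a larger part, between 38.6% and 45.3% of the sum, and the Hspa8 expected counts gave a log2 fold change of -1.67 with an edgeR adjusted p of 0.0393. The direction and the call were therefore the same in raw and expected counts, while the level of either gene alone is uncertain.

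**Figure D3:**
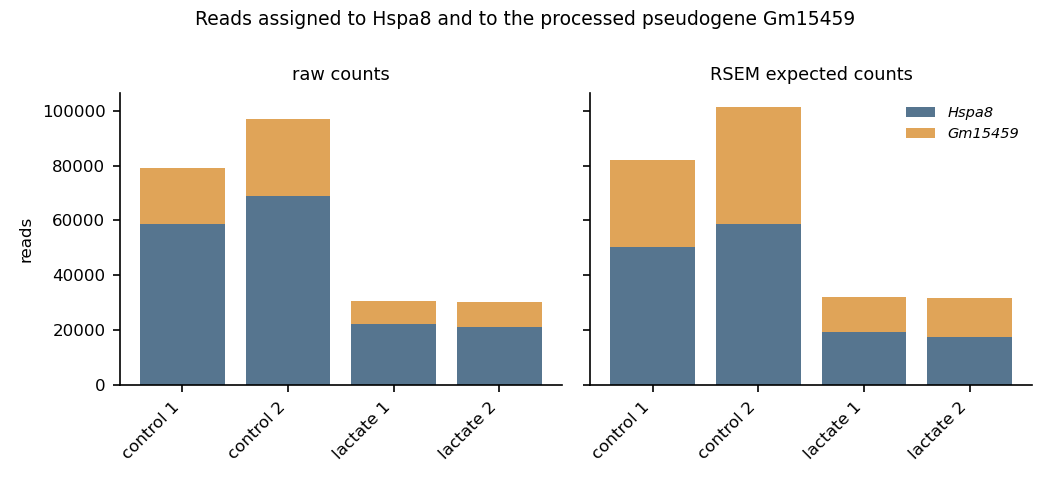
Reads assigned to Hspa8 (blue) and to the processed pseudogene Gm15459 (orange) in each library, stacked, from the raw counts (left) and the RSEM expected counts (right). In raw counts the stack falls from 79169 and 97091 reads in the control to 30464 and 30204 reads in the lactate libraries, and the share of the pseudogene is larger in the expected counts.

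The stress-inducible HSP70 genes Hspa1a and Hspa1b, neighbours on chromosome 17 that heat and unfolded proteins switch on in most cells, were hardly expressed in either group. Hspa1a had 21 and 26 reads in controls against 11 and 16 with lactate, and Hspa1b had 90 and 111 against 78 and 77. Both genes were lower in both lactate libraries, yet the log2 fold changes of -0.87 ± 0.33 and -0.45 ± 0.21 (SE) had edgeR adjusted p-values of 0.185 and 0.256. The genes share 60.3% and 62.3% of their 50-base stretches, mainly with each other, so their split is uncertain, and both carry the pair GAAGATTC at -104 from the start. Per length, Hspa1a was the lowest of the 37 genes in the control at 1.56 ± 0.22 TPM and Hspa8 had the highest mean at 4404 ± 703 TPM (SD, n = 2), although Hsp90ab1 was above it in control replicate 2.

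The remaining members of this family divided in direction. Hspa2, an HSP70 known for its role in spermatogenesis, had 7.86 and 6.54 CPM in controls against 3.12 and 4.97 CPM with lactate, and at a log2 fold change of -0.83 ± 0.28 (SE) its edgeR adjusted p was 0.153. Hspa13, a microsomal relative, and Hspa14, which acts at the ribosome, had log2 fold changes of 0.20 and 0.10, and the groups overlapped for Hspa14. Reads of Hspa14 are shared with the overlapping gene Gm45902 on the same strand.

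Of the HSP110 genes, whose products exchange the nucleotide of HSP70 and take part in breaking up aggregates, Hsph1 was called. Hsph1 (HSP105, chr5:149614287-149636376, minus strand) had 215 and 211 CPM in controls against 104 and 102 CPM with lactate. The 2 libraries of each group lay close together and the groups were far apart, at means of 213 ± 3.19 and 103 ± 1.39 CPM (SD, n = 2). The level in lactate was 48.6% of the control, a log2 fold change of -1.04 ± 0.13 (SE) with an edgeR adjusted p of 0.0406. None of its 50-base stretches occurs in another annotated gene. Without control replicate 1 its edgeR adjusted p was 0.0825, and with RSEM expected counts it was 0.0515, so the call was lost in both. It was lost as well with library totals alone, where the log2 fold change of -0.98 was under 2-fold, and with limma.

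The other HSP110 genes did not pass the test. Hspa4 (APG-2) had 919 and 829 CPM in controls against 736 and 696 CPM with lactate, lower in both at a log2 fold change of -0.29 ± 0.15 (SE) and an edgeR adjusted p of 0.296. Hspa4l (APG-1), which is prominent in the germ line, had 9.25 and 7.43 CPM in controls against 12.5 and 10.7 CPM with lactate, higher in both at a log2 fold change of 0.48 ± 0.20 (SE) and an edgeR adjusted p of 0.223. The difference between the HSP110 genes was not tested.

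Of 5 J-protein genes, 4 had lower levels in both lactate libraries than in both controls and 1 had higher levels in both. Among all genes tested these shares were 25.9% lower and 27.0% higher. Dnajb1 (HSP40), a stress-inducible partner of HSP70, had 60.3 and 56.9 CPM in controls against 30.8 and 36.1 CPM with lactate, with a log2 fold change of -0.81 ± 0.15 (SE) and an edgeR adjusted p of 0.0571. Dnaja1, a farnesylated J-protein of the cytosol, had 201 and 196 CPM in controls against 118 and 119 CPM with lactate, with a log2 fold change of -0.74 ± 0.13 (SE) and an edgeR adjusted p of 0.0526. In both genes the groups were well apart, but the adjusted p missed 0.05 in edgeR and passed it in DESeq2, at 0.00786 and 0.00568. Dnaja2 and Dnajb6, the latter known for holding back polyglutamine aggregation, had log2 fold changes of -0.42 ± 0.13 and -0.52 ± 0.13 (SE) with edgeR adjusted p-values of 0.137 and 0.0918.

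Dnajb4, a close relative of Dnajb1, had the highest log2 fold change of the 37 genes. Its CPM was 17.2 and 14.1 in controls against 26.0 and 23.2 with lactate, higher in both. The log2 fold change was 0.66 ± 0.18 (SE) with an edgeR adjusted p of 0.106, which did not pass.

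The nucleotide exchange factors of the BAG family, which bind the ATPase domain of HSP70, were lower or overlapped. Bag3, a stress-inducible factor that directs clients to autophagy, had 90.8 and 63.6 CPM in controls against 55.8 and 41.0 CPM with lactate. Both lactate libraries lay below both controls, but the spread within groups was wide and the log2 fold change of -0.67 ± 0.23 (SE) had an edgeR adjusted p of 0.156. Bag1, which links HSP70 to the proteasome, overlapped at -0.13 ± 0.14 (SE). St13 (HIP), which stabilises the ADP-bound HSP70, overlapped as well, at -0.23 ± 0.20 (SE).

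**Figure D4:**
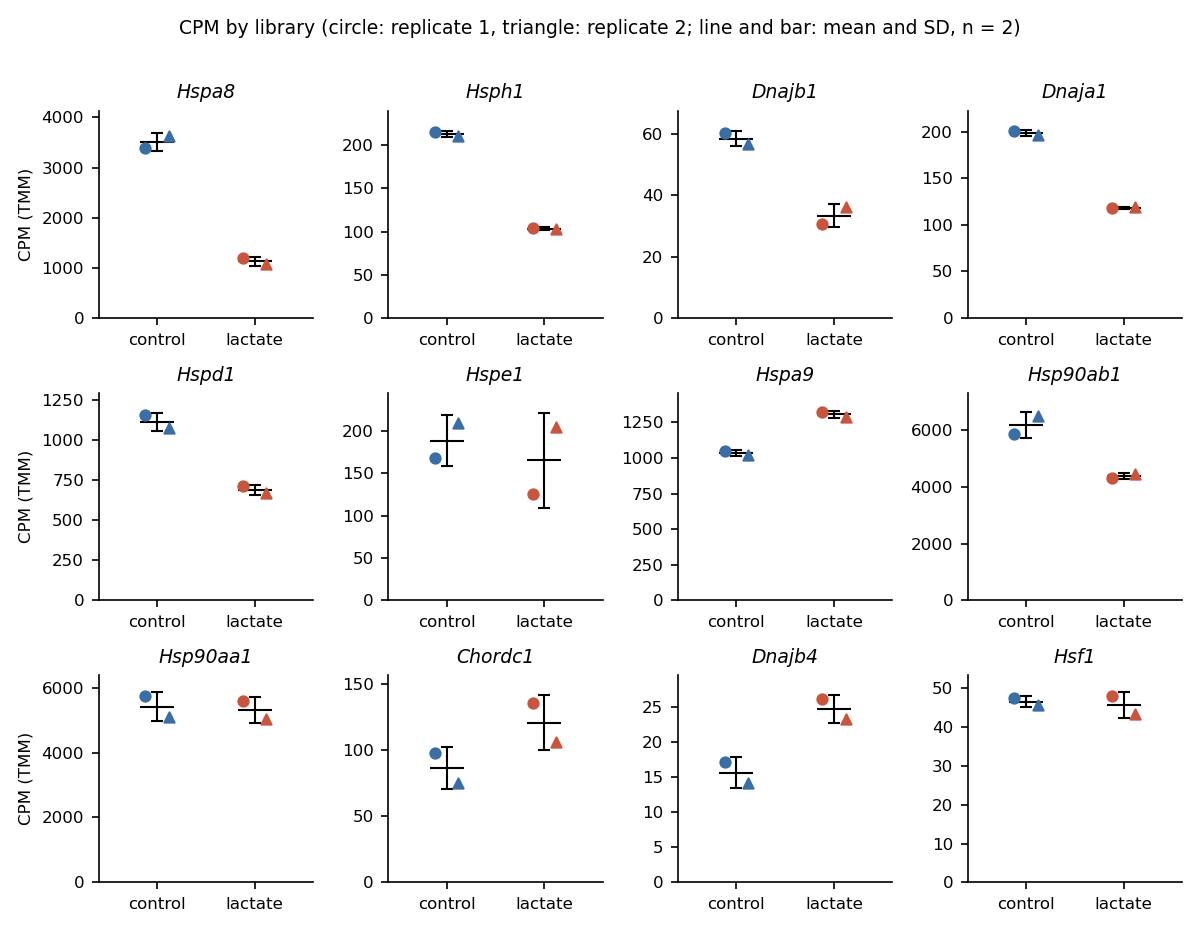
CPM (TMM-normalized, vertical axes starting at 0) of 12 chaperone genes in each library, with circles for replicate 1, triangles for replicate 2, and lines and bars for mean and SD (n = 2). Groups are apart and lower in lactate for Hspa8, Hsph1, Dnajb1, Dnaja1, Hspd1 and Hsp90ab1, apart and higher for Hspa9, Chordc1 and Dnajb4, and overlap for Hspe1, Hsp90aa1 and Hsf1.

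The cytosolic HSP90 genes, the most read members of the set, did not pass the test, and the difference between their changes was not tested. Hsp90ab1, the constitutive HSP90 beta, had 5878 and 6526 CPM in controls against 4320.2 and 4464 CPM with lactate. Both lactate libraries were lower, at a log2 fold change of -0.50 ± 0.17 (SE) and an edgeR adjusted p of 0.156. Hsp90aa1, the stress-inducible HSP90 alpha, had 5729 and 5097 CPM in controls against 5585 and 5028 CPM with lactate. Its groups overlapped, at a log2 fold change of -0.03 ± 0.17 (SE) and an edgeR adjusted p of 0.945. Scaling by library totals alone put Hsp90aa1 at 0.04 instead.

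In TPM, the ratio of Hsp90aa1 to Hsp90ab1 was 0.766 and 0.621 in controls against 1.01 and 0.891 with lactate. The alpha form was below the beta form in both controls and about level with it in lactate replicate 1, and the ratio was higher in both lactate libraries, by 1.37-fold in the means of 0.694 ± 0.103 and 0.949 ± 0.0830 (SD, n = 2). Of the 50-base stretches of Hsp90aa1, 58.5% occur in other genes, chiefly the pseudogene Gm12346, and for Hsp90ab1 this share was 4.49%, so that reads of the alpha form are the less certain.

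Of the HSP90 co-chaperones, 3 were lower and 1 was higher in both lactate libraries, and none passed the test. Both lactate libraries were below both controls for 25.9% of all genes tested and above both for 27.0%. Ahsa1, which stimulates the HSP90 ATPase, had a log2 fold change of -0.62 ± 0.17 (SE) and an edgeR adjusted p of 0.112, Stip1 (HOP), the adaptor that joins HSP70 and HSP90, had -0.51 ± 0.24 (SE), and the immunophilin Fkbp4 had -0.44 ± 0.19 (SE). Chordc1, an HSP90 partner with zinc-binding domains that carries the longest heat shock element printed above, had 97.8 and 75.4 CPM in controls against 136 and 106 CPM with lactate. This was higher in both, at a log2 fold change of 0.48 ± 0.19 (SE) and an edgeR adjusted p of 0.199.

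Hspb1 (HSP27 in man), a small HSP that holds unfolded proteins without ATP, had 339.8 and 414 CPM in controls against 260.5 and 287 CPM with lactate. It was lower in both at a log2 fold change of -0.46 ± 0.16 (SE), with an edgeR adjusted p of 0.157. Per length, its control level of 956 ± 131 TPM (SD, n = 2) came next after those of Hspa8, Hsp90ab1 and Hsp90aa1. Hspa8 and Hsp90ab1 did not differ beyond their spread, at 4404 ± 703 and 4041 ± 372 TPM, while Hsp90aa1 followed at 2785 ± 156 TPM. In the lactate libraries Hsp90ab1 at 2995 ± 3.31 TPM and Hsp90aa1 at 2844 ± 252 TPM did not differ beyond their spread, with Hsp90aa1 the higher in lactate replicate 1, and both were above Hspa8 at 1486 ± 475 TPM. The TPM of Hspa8 depend on an effective length that RSEM set at 904 and 913 bases in the libraries numbered 1 and at 1233 and 1236 bases in those numbered 2.

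None of the 3 mitochondrial chaperone genes passed the edgeR test, and their fitted changes had different directions. Hspd1 (HSP60) had 1157 and 1077 CPM in controls against 712 and 667 CPM with lactate, with no overlap, at a log2 fold change of -0.70 ± 0.15 (SE) with an edgeR adjusted p of 0.0678 and a DESeq2 adjusted p of 0.00984. Hspe1 (HSP10), its lid, is transcribed from the same promoter region in the other direction and had 167 and 209.8 CPM in controls against 126 and 205 CPM with lactate. The groups of Hspe1 overlapped, with lactate replicate 2 close to control replicate 2, at a log2 fold change of -0.19 ± 0.25 (SE) and an edgeR adjusted p of 0.703. Without lactate replicate 1 this log2 fold change was 0.09. The gene models of Hspd1 and Hspe1 overlap at their starts on opposite strands, 44.8% and 36.1% of their 50-base stretches occur in other genes, and whether the counts used strand was not stated.

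Hspa9 (mortalin), the HSP70 of the mitochondrial matrix that pulls proteins in during import, had 1048 and 1023 CPM in controls against 1325 and 1289 CPM with lactate. It was higher in both, at a log2 fold change of 0.34 ± 0.14 (SE) and an edgeR adjusted p of 0.228. The TPM ratio of Hspa9 to Hspd1, chosen after the values were seen, was 0.661 and 0.705 in controls against 1.38 and 1.44 with lactate, a 2.07-fold higher mean of 1.41 ± 0.0436 against 0.683 ± 0.0306 (SD, n = 2). The TPM ratio of Hspd1 to Hspe1 was 1.53 and 1.13 in controls against 1.23 and 0.721 with lactate, so the groups overlapped. That of Hsph1 to Hspa8 was 0.0282 and 0.0258 in controls against 0.0341 and 0.0548 with lactate, higher in both lactate libraries. In raw counts the Hsph1 to Hspa8 ratio was 0.0636 and 0.0579 in controls against 0.0873 and 0.0958 with lactate. Both versions depend on the split of Hspa8 reads with Gm15459, and the TPM version also on effective lengths that varied between libraries for both genes.

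**Figure D5:**
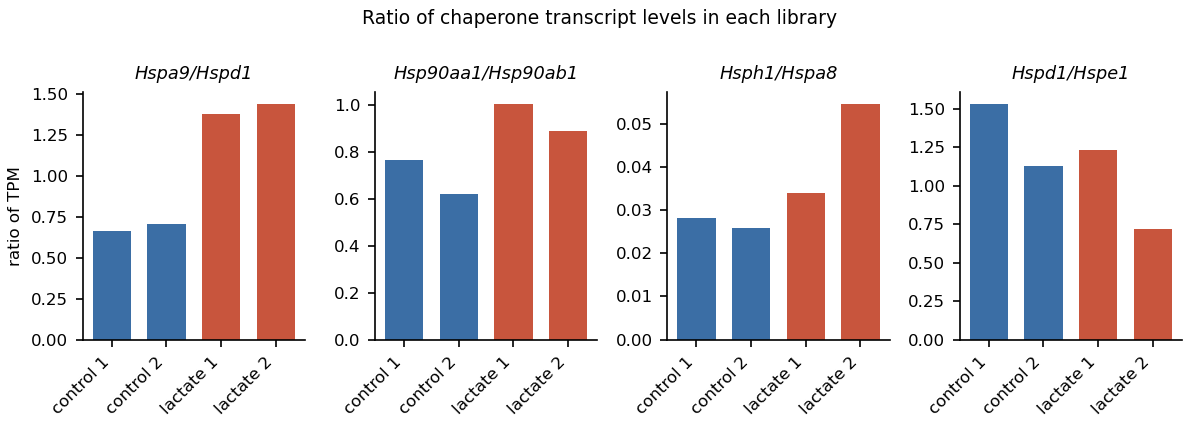
Ratio of TPM (vertical axes, linear from 0) of 4 pairs of chaperone genes in each of the 4 libraries. The Hspa9 to Hspd1 ratio is 0.661 and 0.705 in controls against 1.38 and 1.44 with lactate, whereas the Hspd1 to Hspe1 ratio overlaps between groups.

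Subunits of the chaperonin ring, which folds actin, tubulin and other cytosolic proteins, showed no shared direction. Of the 7 subunits in the set, 1 was lower and 2 were higher in both lactate libraries than in both controls, and 4 overlapped. Over all genes tested, 25.9% were lower and 27.0% higher in this way. The remaining subunit of the ring, Cct6a, was not in the set and was read with the other cytosolic chaperones. It had 489 and 519 CPM in controls against 412 and 456 CPM with lactate, lower in both at a log2 fold change of -0.22 ± 0.14 (SE) and an edgeR adjusted p of 0.406, which makes 2 lower and 2 higher of 8. Cct3 was the lower one of the set, with 548 and 668 CPM in controls against 349 and 438 CPM with lactate, at a log2 fold change of -0.63 ± 0.18 (SE) and an edgeR adjusted p of 0.121. Cct4 had 512 and 578 CPM in controls against 591 and 691 CPM with lactate, higher in both at a log2 fold change of 0.23 ± 0.16 (SE) and an edgeR adjusted p of 0.420. Cct2 had 668 and 638 CPM in controls against 684 and 653 CPM with lactate, and its groups overlapped. Tcp1 was at 0.10 ± 0.14 (SE), and Cct2, Cct5, Cct7 and Cct8, at log2 fold changes from -0.34 to 0.03, overlapped.

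Per length the subunits lay within a narrow range of each other. Among the 7 subunits of the set, Cct2 had the highest control mean at 554 ± 3.22 TPM and Cct4 the lowest at 364 ± 32.3 TPM (SD, n = 2). Cct2 was at 593 ± 29.7 TPM and Cct4 at 439 ± 34.9 TPM in the lactate libraries, where Cct3 was the lowest at 347 ± 52.3 TPM. The highest subunit exceeded the lowest by 1.63-fold and 1.46-fold in the control and by 1.98-fold and 1.49-fold in the lactate libraries. With Cct6a, which at 614 TPM was the highest in control replicate 2, the ratio in that library was 1.59-fold and those of the other 3 libraries stayed as given.

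The heat shock factors overlapped between the groups. Hsf1, the main activator of the heat shock response, had 47.5 and 45.6 CPM in controls against 48.0 and 43.3 CPM with lactate, at a log2 fold change of -0.03 ± 0.13 (SE) and an edgeR adjusted p of 0.929. Hsf2, a relative that is active in development, had 56.7 and 45.3 CPM in controls against 60.4 and 51.0 CPM with lactate, at 0.13 ± 0.17 (SE). For both genes the value of 1 group lay within the range of the other, and the activity of the factors was not measured. Serpinh1 (HSP47), which resides in the endoplasmic reticulum and assists collagen, was kept in the set by name and overlapped at 0.10 ± 0.23 (SE).

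Related genes that were not in the set were read from further lists. Over all genes tested, 11.4% were lower and 11.7% higher at an unadjusted edgeR p under 0.05. At an edgeR adjusted p under 0.05 these shares were 0.423% and 0.568%. Of 47 other cytosolic chaperones and co-chaperones, 42 were tested, none passed an edgeR adjusted p of 0.05, and 5 were higher and 4 lower at an unadjusted p under 0.05, with a median log2 fold change of -0.04. DESeq2 gave 2 higher and 1 lower an adjusted p under 0.05. Of all genes with a DESeq2 adjusted value, 3.07% were lower at that threshold, and the share that was higher is not given here. The J-protein Dnajb14 had 14.9 and 12.8 CPM in controls against 27.9 and 25.6 CPM with lactate, and the small HSP Hspb6 had 7.46 and 5.53 CPM against 20.6 and 14.2 CPM. These were higher in both lactate libraries at log2 fold changes of 0.95 ± 0.17 and 1.42 ± 0.26 (SE), with edgeR adjusted p-values of 0.0553 and 0.0578. Dnajb5 was lower in both, at -0.75 ± 0.16 (SE) and an edgeR adjusted p of 0.0720. The 8 prefoldin genes, whose products hand clients to the chaperonin, had a median of 0.01, and edgeR gave none an adjusted p under 0.05 or an unadjusted p under 0.05.

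Of 18 genes of mitochondrial protein quality control, none passed an edgeR adjusted p of 0.05, none was higher and 3 were lower at an unadjusted p under 0.05, and the median log2 fold change was -0.15. DESeq2 gave 1 of these, which was lower, an adjusted p under 0.05, against 3.07% lower among all genes with an adjusted value. Lonp1, the protease that clears damaged matrix proteins, had 212 and 259 CPM in controls against 119 and 152 CPM with lactate, lower in both at a log2 fold change of -0.80 ± 0.18 (SE) and an edgeR adjusted p of 0.0771. The matrix protease subunit Clpp was at -0.49 ± 0.13 (SE) with an edgeR adjusted p of 0.0998.

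The chaperones of the endoplasmic reticulum, which serve secreted proteins, included 1 gene that passed the test. Of 17 genes, 1 was lower and none was higher at an edgeR adjusted p under 0.05. At an unadjusted p under 0.05, 7 were lower and 1 was higher, against 11.4% and 11.7% of all genes, and the median log2 fold change was -0.17. Both lactate libraries lay below both controls for 9 and above both for 2, against 25.9% and 27.0% of all genes. DESeq2 gave 5, all lower, an adjusted p under 0.05, against 3.07% lower among all genes with an adjusted value. Hspa5 (BiP), the HSP70 of this compartment, was the gene that passed, with 529 and 617 CPM in controls against 232 and 281 CPM with lactate. It was lower in both at a log2 fold change of -1.16 ± 0.17 (SE) and an edgeR adjusted p of 0.0467. This call was lost without control replicate 1, with library totals alone, with at least 10 counts in every library, with RSEM expected counts and with limma, where no gene of the list passed. Manf, Pdia4 and Calr had log2 fold changes of -0.84, -0.65 and -0.62, with edgeR adjusted p-values of 0.0520, 0.0606 and 0.0805. Among the HSP70 genes, Hspa8 of the cytosol and Hspa5 of the endoplasmic reticulum were called lower, and Hspa9 of the mitochondrial matrix was not called. The further HSP70 genes of the set (Hspa1a, Hspa1b, Hspa2, Hspa13 and Hspa14) were not called either, and a difference between compartments was not tested.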

How the data were processed

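RNA-seq of AB2.2 mouse ESCs was used from 2 control and 2 lactate libraries. The authors deposited raw read counts on 55335 genes and 1153 transposable element families, and RSEM tables of each library with expected counts, TPM and FPKM. The submitters' processing notes name cutadapt 1.16, STAR, RSEM and mm10. The study's methods name exon counting by the GeneCounts mode of STAR on GENCODE release M23, yet the deposited table also holds transposable elements, and whether it came from that step, and with which strand column, is not given in the sources used here. Expected counts were rounded to whole numbers before testing. Positions came from GENCODE release M21 on GRCm38, which held 55154 of the gene identifiers, and promoters from RefSeq (GRCm38.p6).

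The raw counts were tested with edgeR 4.0.16 under R 4.3.3 (filterByExpr, TMM factors from 0.959 to 1.04, legacy quasi-likelihood test, no replicate term) and Benjamini-Hochberg adjustment over 18661 genes. The common biological coefficient of variation was 15.9%. CPM are TMM-normalized, and the standard error is the size of the log2 fold change divided by the square root of F. Replicates of a group differed beyond counting noise (chi-square over its degrees of freedom 22.3 and 21.6), and each library was counted as 1 sample. DESeq2 1.42.0 and limma 3.58.1 gave alternatives. The tests were tried on simulated counts.

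The 37 members, the further lists and the tests were chosen with earlier results of these data known. All members are described by role. Values per library were to be given for members with an adjusted p under 0.05, the 4 highest and 4 lowest log2 fold changes, the best known chaperones and factors, and the chaperonin subunits of highest and lowest level. From further lists at most 4 genes with an adjusted p under 0.05 or an unadjusted p under 0.01 were named. Gm15459 and some ratios were chosen after values were seen, as were Cct3, Vim, the sums without Fn1 or Hspa8 and the ring with Cct6a. Sequences were compared in stretches of 50 bases.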

Additional observations from a re-analysis of the deposited data

How the results depend on the processing

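The direction of 28 of the 37 chaperone genes was the same under all 15 alternatives, which were fixed with earlier results known, and Hspa8 and Hsph1 were lower in each. Of chaperone genes called lower, 2 in the report, there was 1 with library totals alone, 1 with RSEM expected counts and 0 with limma-trend on FPKM (pseudocounts 1 and 0.1, and no filter), where 0 genes in all were called higher or lower. At an adjusted p under 0.05, 5 were lower with DESeq2, 10 without a filter on low counts, 1 with RSEM and 0 with limma. At an unadjusted p under 0.05, 4 were higher with library totals alone, 1 with RSEM and 1 with limma, and 8 or, without its filter, 7 were lower with limma. Of all genes, DESeq2 called 213 higher and 162 lower, no filter 482 and 325 and RSEM 27 and 17, and library totals alone called 40 lower. The median log2 fold change of the chaperone genes was -0.22 with library totals alone, -0.33 without a filter and -0.27 with limma at a pseudocount of 1. The cause of these shifts was not tested.

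Leaving out 1 library in turn gave 1 to 3 chaperone genes called lower, 1 (without control replicate 1) to 6 (without lactate replicate 2) lower at an adjusted p under 0.05, 0 (without control replicate 2) to 3 higher and 7 (without lactate replicate 1) to 13 lower at an unadjusted p under 0.05, and 45 to 502 genes in all called higher and 39 to 367 called lower, fewest without control replicate 1 and most without lactate replicate 2. The lone library of a group was then assumed to vary like the other group.

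Replicate numbers are shared by the groups, but no label says that they mark a pair. Same-numbered libraries deviated together (correlation 0.561 across genes, which are not independent), with 2 pairs. With the replicate block, 5 chaperone genes were higher and 21 lower at an adjusted p under 0.05, 6 were higher at an unadjusted p under 0.05, and 761 genes in all were called higher and 395 lower, while 2 chaperone genes were still called lower. In the further lists, 26 of the 42 tested other cytosolic chaperones, 3 prefoldin, 9 mitochondrial and 10 endoplasmic reticulum genes passed an adjusted p of 0.05 with the block. The share of all genes at that threshold with the block was not counted, so none of these counts is read as a result about a list. A block and a group term fitted to 4 libraries also leave little with which to estimate the spread.

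For the other cytosolic chaperones the median log2 fold change was 0.024 with library totals alone, -0.088 without a filter, 0.016 with limma at a pseudocount of 1 with and without its filter and 0.017 at 0.1, and -0.098 to -0.050 with 1 library left out, and genes at an adjusted p under 0.05 numbered 3 with DESeq2, 3 without a filter and 0 to 4 with 1 library left out. The prefoldin median ran from -0.26 (without lactate replicate 2) to 0.0066. The mitochondrial median was -0.081 with library totals alone and -0.16 to -0.037 (without control replicate 2) with 1 library left out, with 1 gene passing in DESeq2, 1 without a filter and 0 to 1 with 1 library left out. The endoplasmic reticulum median was -0.10 with library totals alone, -0.21 without a filter, -0.22 with RSEM, -0.13 with limma at a pseudocount of 1 with and without its filter, -0.14 at 0.1, and -0.31 to -0.23 with 1 library left out. Of its genes, 5 passed with DESeq2, 5 without a filter, 0 with library totals alone, with at least 10 counts in every library, with RSEM and with limma, and 0 (without control replicate 1) to 3 with 1 library left out.

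The sign changed for 9 genes, whose log2 fold changes in the report ran from -0.19 (Hspe1) to 0.13 (Hsf2). With library totals alone, Hsp90aa1 was at 0.038, Hsf1 at 0.038, Cct5 at 0.0062 and Cct8 at 0.041. With limma, at either pseudocount and without its filter, Hsp90aa1 was at 0.027, Cct5 at 0.011 and Cct8 at 0.022, and without a filter on counts Cct2 was at -0.0096. With 1 library left out the range was -0.057 to 0.21 for Hspa14, -0.13 to 0.042 for Hsp90aa1, -0.59 to 0.091 for Hspe1, -0.13 to 0.042 for Hsf1, -0.032 to 0.28 for Hsf2, -0.027 to 0.064 for Cct2, -0.19 to 0.088 for Cct8 and -0.22 to 0.47 for Serpinh1.

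Depth limits Hspa1a, with 11 to 26 reads in a library, and shared reads limit the split of Hspa8, Hspa1a, Hspa1b, Hsp90aa1 and Hspb1, of whose 50-base stretches over 50% occur in other genes. Strand could not be checked, and 15 members overlap another gene model. With 2 libraries a group, an effect that missed the threshold is not shown to be absent.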
